A study of Mus musculus with 71 samples.

Results

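The 7 genes described here encode the brain cannabinoid receptor and the enzymes that make and break down its lipid ligands: Cnr1, Dagla, Daglb, Napepld, Faah, Mgll and Abhd6. They were taken by symbol from the 37681 gene rows of 6 mouse RNA-seq tables, whatever their values, and all 7 were present in every table and passed the filter on low values in every comparison. The libraries came from the nucleus accumbens (NAc), ventral tegmental area (VTA) and prefrontal cortex (PFC) of wild type C57BL/6 mice (C57BL/6J in the methods) with a jugular catheter, which took either cocaine or saline by self-administration in daily sessions and after food training that both groups shared. Tissue was micro-punched after 1 day or 28 days of abstinence. Each of the 12 groups had 6 libraries, except saline VTA at 28 days with 5, giving 71 in all. According to the methods, adult mice of both sexes were used, and the labels give no sex for a library and do not say whether the regions were taken from the same animals.

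Endocannabinoids are signalling lipids that neurons make on demand from membrane phospholipids. They are released from the postsynaptic side, travel backwards across the synapse and act on the receptor encoded by Cnr1, which couples to inhibitory G proteins and lowers transmitter release. The ligand 2-arachidonoylglycerol (2-AG) is made by the diacylglycerol lipases encoded by Dagla and Daglb and broken down mainly by monoacylglycerol lipase (Mgll), with a smaller share by Abhd6. The ligand anandamide can be made by the phospholipase D encoded by Napepld and is broken down by fatty acid amide hydrolase (Faah). In the mesolimbic circuit this system is known for controlling excitatory and inhibitory input to dopamine neurons of the VTA and to projection neurons of the NAc.

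In mm9 coordinates, chromosome 4 carries Cnr1 (ENSMUSG00000044288, plus strand, 34011568 to 34035806) and Faah (ENSMUSG00000034171, minus strand, 115639750 to 115690531). Chromosome 5 carries Napepld (ENSMUSG00000044968, minus strand, 21168719 to 21207214) and Daglb (ENSMUSG00000039206, plus strand, 144225361 to 144265310). Mgll (ENSMUSG00000033174, plus strand, 88674406 to 88778354) is on chromosome 6, Abhd6 (ENSMUSG00000025277, plus strand, 8835416 to 8889069) on chromosome 14 and Dagla (ENSMUSG00000035735, minus strand, 10319755 to 10379367) on chromosome 19. Values are whole-gene read counts, so none of them separates exons, introns or transcript forms.

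Promoter windows, from 250 bases before to 50 bases after a transcription start, were read from RefSeq (GRCm38.p6), which gave 10 windows for 6 of the 7 genes. Dagla had no entry. The windows were searched on both strands for AAAGGTCA, the site of NR4A nuclear receptors on which the study centred. None of the 10 held it, against 1.51% of the 32851 windows of all genes. The full cyclic AMP response element TGACGTCA was also in none of the 10 (1.79% of all windows), and its overlapping shorter form TGACG was in 1, from Mgll (20.8% of all windows). The GC box GGGCGG was in 6 of the 10, from Abhd6, Cnr1, Faah and Mgll, against 35.7% of all windows. The windows of Abhd6 overlap and hold the same GC box, so the windows are not independent of each other. A Cnr1 window and the Faah window are printed because they hold the most GC boxes among these genes, 5 and 2. The other Cnr1 windows held 0 (GC content of 69% and 46.3%). A further reason was that both genes tracked cortical markers in the NAc, Cnr1 at 1 day only, as given further on. Napepld, whose window held 0 GC boxes, also tracked them. Capitals mark GGGCGG and its reverse complement CCGCCC. The Cnr1 window (chr4:33924014-33924313, plus strand) had a GC content of 76.3%, and the Faah window (chr4:116017875-116018174, minus strand, printed 5′ to 3′ along the gene) one of 57.7%, beside a median of 52.7% over all windows. A match or its absence describes these letters only.
Cnr1: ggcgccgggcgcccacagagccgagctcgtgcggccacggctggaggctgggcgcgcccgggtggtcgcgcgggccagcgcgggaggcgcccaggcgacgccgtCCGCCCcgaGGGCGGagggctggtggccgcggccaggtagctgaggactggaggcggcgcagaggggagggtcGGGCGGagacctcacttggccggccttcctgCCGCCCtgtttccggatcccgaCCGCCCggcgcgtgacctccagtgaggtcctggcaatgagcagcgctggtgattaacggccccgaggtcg
Faah: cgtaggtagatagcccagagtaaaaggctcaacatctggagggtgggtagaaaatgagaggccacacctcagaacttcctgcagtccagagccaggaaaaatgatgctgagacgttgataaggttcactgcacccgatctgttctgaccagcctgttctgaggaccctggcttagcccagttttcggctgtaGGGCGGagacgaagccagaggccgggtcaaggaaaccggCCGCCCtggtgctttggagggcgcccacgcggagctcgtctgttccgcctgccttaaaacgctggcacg

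Depth was 20971967 to 49700932 reads in genes per library, and the 7 genes were well covered. The fewest reads for any of them in a library was 142, for Napepld, and the most was 17116, for Mgll. Some libraries stood apart in markers of neighbouring tissue. In the NAc, the summed level of 6 cortical excitatory neuron markers (Slc17a7 among them) ran from 3.43 to 289 RPKM (reads for each kilobase of gene length, scaled to library size) over the 1-day libraries and from 4.99 to 206 over the 28-day libraries, beside 472 to 779 RPKM in the PFC. In the PFC at 28 days, saline library 4 (libraries of that time are numbered in column order) had a summed level of 8 striatal markers of 1338 RPKM, beside 91.8 to 125 RPKM in the other saline libraries. Dopamine neuron markers summed to 437 to 2067 RPKM in the VTA at 28 days, against 4.85 to 18.8 RPKM in the NAc and PFC at that time, with none of them at 0 in any of those groups. Over all 10 marker lists (striatal, dopamine, cortical and GABA neurons, interneurons, astrocytes, oligodendrocytes, microglia, endothelium and choroid plexus), 1 marker passed the test in 1 comparison, a microglial gene that was lower with cocaine in the VTA at 1 day.

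The first question was where these genes are expressed at baseline, and the saline libraries at 28 days answered it on one scale. All members were measured in all regions, and the PFC had the highest mean level of each. Mean levels of Cnr1, Dagla, Mgll, Abhd6 and Daglb followed the order PFC, NAc, VTA, whereas Faah and Napepld were lowest in the NAc. Of the 21 differences between pairs of regions, 19 passed the edgeR quasi-likelihood test at an adjusted p under 0.05. The same test called 40.7% of 17181 genes between NAc and PFC, 62.5% between NAc and VTA and 57.8% between VTA and PFC, so that differences between regions were common and region cannot be told apart from its dissection.

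The receptor gene Cnr1 averaged 28.2 ± 3.9 RPKM in the PFC (SD, n = 6), 19.8 ± 4.8 RPKM in the NAc (n = 6) and 8.18 ± 1.22 RPKM in the VTA (n = 5). The log2 difference was -0.53 ± 0.14 (SE) for NAc minus PFC (adjusted p = 0.00605), 1.25 ± 0.15 for NAc minus VTA (adjusted p = 1.49e-06) and -1.78 ± 0.16 for VTA minus PFC (adjusted p = 2.68e-08). NAc and PFC libraries overlapped, from 14.2 to 25.7 RPKM against 21.5 to 32.1 RPKM, and no VTA library reached either region. Dagla, the main synthetic enzyme of 2-AG at adult synapses, followed the same order without overlap between any pair of regions, as did Mgll and Abhd6. How often regions did not overlap over all genes was not counted. Dagla averaged 27.6 ± 1.1 RPKM in the PFC, 20.9 ± 1.5 RPKM in the NAc and 9.00 ± 1.26 RPKM in the VTA. Its NAc minus VTA difference was 1.19 ± 0.09 on the log2 scale, or 2.28-fold (adjusted p = 2.3e-09), and the NAc minus PFC difference was -0.42 ± 0.08 (adjusted p = 0.0004).

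The second diacylglycerol lipase, Daglb, was flatter. Its mean was 15.6 ± 0.9 RPKM in the PFC, 10.6 ± 0.5 RPKM in the NAc and 10.1 ± 0.7 RPKM in the VTA. NAc and VTA were neighbours that did not differ beyond their spread (log2 difference 0.05 ± 0.06, 95% interval -0.08 to 0.17, adjusted p = 0.537). Mgll, which ends 2-AG signalling at presynaptic terminals, showed the widest span of the 7 genes. Its mean ran from 17.4 ± 2.2 RPKM in the VTA through 65.5 ± 4.5 RPKM in the NAc to 90.0 ± 8.2 RPKM in the PFC, a VTA minus PFC log2 difference of -2.36 ± 0.09 (adjusted p = 6.41e-13). Abhd6, the postsynaptic 2-AG hydrolase, kept within a narrower span, 22.9 ± 1.4 RPKM in the PFC, 18.5 ± 1.1 RPKM in the NAc and 13.7 ± 2.2 RPKM in the VTA. Its NAc minus PFC difference was -0.33 ± 0.08 (adjusted p = 0.00494), and in the saline libraries of 1 day it was -0.08 and did not pass the test.

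The anandamide genes were arranged differently. Napepld averaged 1.71 ± 0.12 RPKM in the NAc, 4.29 ± 0.62 RPKM in the VTA and 4.92 ± 0.93 RPKM in the PFC. The NAc was thus 0.392 times the VTA (adjusted p = 9.56e-08), whereas VTA and PFC did not differ beyond their spread (log2 difference -0.19 ± 0.13, 95% interval -0.45 to 0.06, adjusted p = 0.219). That last pair passed the test when PFC saline library 4, the one with striatal markers, was left out (-0.29), in the cocaine libraries (-0.19) and in the 1-day saline libraries (-0.28). Faah averaged 5.56 ± 1.80 RPKM in the NAc, 8.56 ± 0.89 RPKM in the VTA and 19.2 ± 2.4 RPKM in the PFC, and all 3 pairs passed the test. Its NAc libraries spread 2.41-fold from lowest to highest, more than those of any other member in that region.

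**Figure D1:**
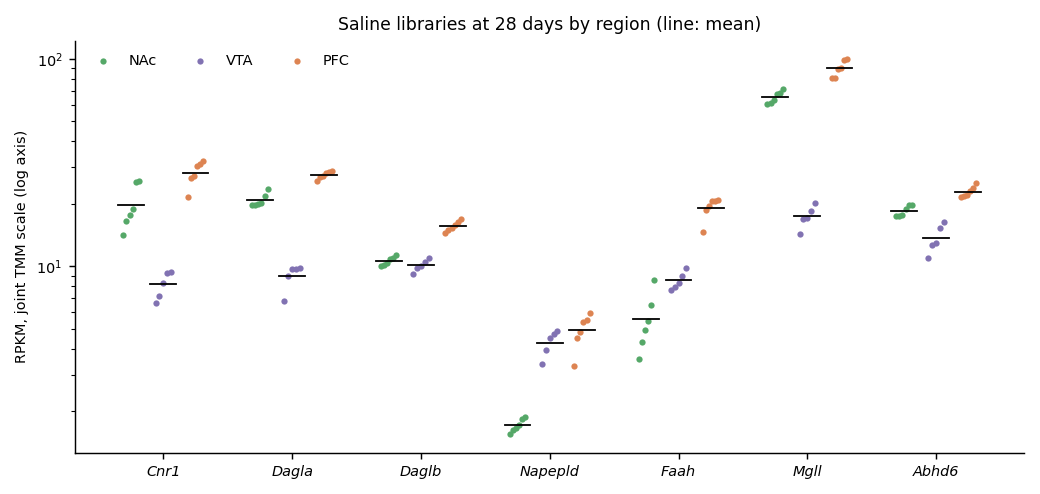
Level of each gene (RPKM on a joint TMM scale, log axis) in every saline library at 28 days, with 1 point per library, coloured by region, and a line at the group mean. Every gene has its highest mean in the PFC, Mgll has the highest mean of the 7 in each region, and Napepld and Faah have their lowest points in the NAc.

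Within each region the genes were ranked by RPKM, which divides by gene length but takes no account of base composition. Mgll had the highest mean of the 7 in all regions and Napepld the lowest. In saline VTA libraries of 1 day, however, Abhd6 averaged 15.1 RPKM and Mgll 14.7 RPKM. In the NAc at 28 days, Dagla, Cnr1 and Abhd6 formed a middle group whose libraries overlapped (19.7 to 23.5, 14.2 to 25.7 and 17.5 to 19.7 RPKM). In saline NAc libraries of 1 day, Dagla lay below the other members of that group. It ran from 6.42 to 10.9 RPKM, against 13.9 to 30.2 RPKM for Cnr1 and 20.5 to 25.6 RPKM for Abhd6. In the VTA, Daglb, Dagla, Faah and Cnr1 all had means between 8.18 and 10.1 RPKM. In the PFC, Cnr1 and Dagla came next after Mgll at 28.2 and 27.6 RPKM, followed by Abhd6 and Faah.

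The main question of the study was what cocaine self-administration changed after abstinence. None of the 7 genes passed the test for cocaine against saline in any region at either time (edgeR for counts, limma for RPKM), in 42 tests whose smallest adjusted p was 0.354. The background was as low: the share of all genes called was 0.0126% in the NAc, 0.0665% in the VTA and 0.00693% in the PFC at 1 day, and 0% in each region at 28 days. At an unadjusted p under 0.05, 7 of the 42 member tests passed, 6 of them at 28 days. Over all genes that share was 4.01% in the NAc, 15.7% in the VTA and 3.78% in the PFC at 1 day, and 6.76%, 11.5% and 5.66% at 28 days. Under DESeq2, which called 18 genes in the NAc, 73 in the VTA and 2 in the PFC at 28 days, no member was called either. At an adjusted p under 0.05, none was called in any of the 714 values from alternative settings (smallest adjusted p = 0.117, for Dagla in the VTA at 28 days). Some of these values lay under the looser threshold of 0.25. Among them at 28 days were the smallest for Cnr1 (0.118), Faah (0.155) and Abhd6 (0.199) in the VTA and for Dagla in the NAc (0.194). At 1 day the smallest for Napepld in the VTA (0.248) was among them too. Whole-tissue counts cannot tell fewer cells of a type from less RNA per cell.

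**Figure D2:**
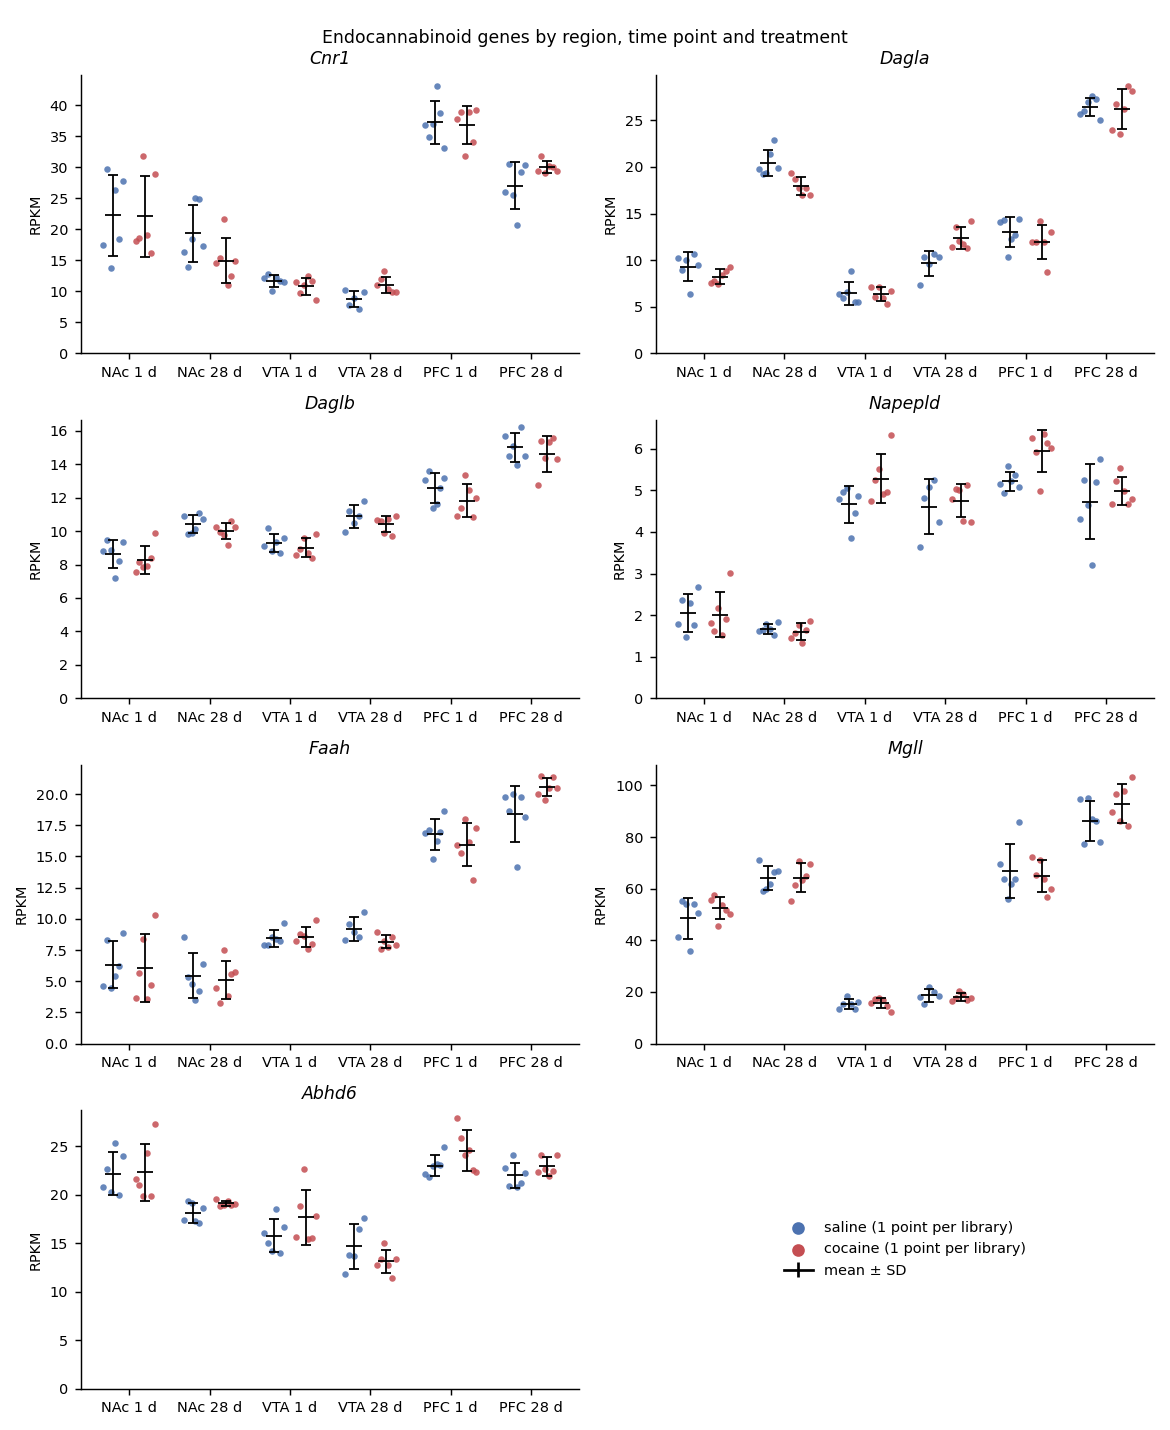
Level of each of the 7 genes (RPKM, linear axis from 0) by region and days of abstinence, with 1 point per library, saline and cocaine side by side, and the mean ± SD as bars. Cocaine and saline points overlap in every panel and group pair except Dagla in the VTA at 28 days.

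At 28 days in the VTA, Dagla and Cnr1 had the largest differences of the 7. Dagla libraries from saline mice measured 7.38, 9.63, 10.3, 10.4 and 10.6 RPKM, and those from cocaine mice ranged from 11.3 to 14.2 RPKM with a median of 11.9. All 6 cocaine libraries lay above all 5 saline libraries, the only one of the 42 comparisons in which the groups did not overlap. How often the groups did not overlap over all genes was not counted. In this comparison 11.5% of all genes had an unadjusted p under 0.05 in edgeR. The log2 fold change was 0.36 ± 0.10 (SE), or 1.28-fold, with an unadjusted p of 0.00412 in edgeR and an adjusted p of 0.389. By the two-sided exact permutation test, p was 0.00433, the smallest that 462 divisions allow, and 0.136 after adjustment over the 42 tests. Cnr1 in saline libraries measured 7.19, 7.71, 8.88, 9.96 and 10.2 RPKM, and in cocaine libraries 9.86 to 13.2 RPKM with a median of 10.6. Of the 6 cocaine libraries, 4 lay above all saline libraries, for a log2 fold change of 0.33 ± 0.11 (unadjusted p = 0.0113, adjusted p = 0.394 in edgeR). Faah, which removes anandamide, lay at 7.62 to 8.93 RPKM with cocaine against 8.27, 8.52, 8.95, 9.61 and 10.6 RPKM with saline. Its log2 fold change was -0.17 ± 0.07 (unadjusted p = 0.0403, adjusted p = 0.417). The other 4 genes had log2 fold changes from -0.16 (Abhd6) to 0.04 (Napepld).

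Marker sums moved in the same libraries. The cortical markers summed to 4.19 to 17.7 RPKM with cocaine (median 4.93) and to 4.03 to 77.2 RPKM with saline (median 26.6). Of the 5 that could be tested, 2 had a log2 fold change above 0 and 3 below, and no marker was at 0. All 5 oligodendrocyte markers had log2 fold changes below 0, with sums of 2283 to 4238 RPKM against 3322 to 6650 RPKM, and dopamine neuron markers overlapped at 624 to 1881 RPKM against 437 to 2067 RPKM. With the cortical marker level as a covariate, Dagla was 0.61 (unadjusted p = 0.000205, adjusted p = 0.171) and Cnr1 0.29 (unadjusted p = 0.0952). The saline library with the lowest Dagla also had the highest slope of level on transcript GC content in that table, and Dagla was 0.28 (unadjusted p = 0.00328) without it. The part of the oligodendrocyte difference in these values was not tested.

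In the NAc at 28 days the same pair of genes had values on the other side of 0. Dagla ranged from 16.9 to 19.4 RPKM with cocaine (median 17.7) and from 19.3 to 22.9 RPKM with saline (median 19.9). In 5 of 6 cocaine libraries it lay below every saline library, for a log2 fold change of -0.19 ± 0.05, or 0.877-fold (unadjusted p = 0.00296, adjusted p = 0.592 in edgeR, exact permutation p = 0.00649, 0.136 adjusted over the 42). Cnr1 ranged from 11.0 to 21.6 RPKM with cocaine (median 14.7) and from 13.9 to 25.03 RPKM with saline (median 17.9), which overlapped broadly. Its log2 fold change was -0.37 ± 0.16 (unadjusted p = 0.0401, adjusted p = 0.707), and the unadjusted p stayed under 0.05 in 5 of the 12 fits that left out a library, with values of -0.50 to -0.29. Abhd6 clustered tightly at 18.9 to 19.6 RPKM with cocaine, against 17.0 to 19.3 RPKM with saline (log2 fold change 0.08 ± 0.04, adjusted p = 0.799). Napepld, Daglb, Faah and Mgll lay between -0.10 and 0.00 on the log2 scale.

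The cortical marker sum in those NAc libraries was 4.99 to 206 RPKM with cocaine (median 24.5) and 21.4 to 179 RPKM with saline (median 62.0). All 6 markers had log2 fold changes below 0, none passed the test, and none was at 0. With the marker level as a covariate Dagla was -0.21 (unadjusted p = 0.00161) and Cnr1 was -0.34 (unadjusted p = 0.0581). The 5 oligodendrocyte markers were also all below 0, with sums of 1105 to 1389 RPKM against 1291 to 1512 RPKM, and their part was not tested.

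Whether the cocaine effect depended on the region was tested directly in 1 fit over all 35 libraries of 28 days. Dagla was 1 of 6 genes called out of 17679 (0.0339%), with an unadjusted p of 1.63e-05 and an adjusted p of 0.048 for both interaction terms together. Among the pairs of regions, the VTA effect exceeded the NAc effect by 0.57 ± 0.10 on the log2 scale (95% interval 0.37 to 0.77, adjusted p = 0.0136 within that contrast, which called 6 genes, 0.0339%). It exceeded the PFC effect by 0.38 ± 0.10 (adjusted p = 0.162, with 6 genes or 0.0339% called), and the PFC effect exceeded that of the NAc by 0.19 ± 0.10 (adjusted p = 1, with 0 genes or 0% called by edgeR and 807 genes at an unadjusted p under 0.05). Cnr1 had the next smallest p of the 7 in the joint test (0.00203, adjusted p = 0.276), with a VTA minus NAc difference of 0.72 ± 0.20 (unadjusted p = 0.000784, adjusted p = 0.256) and a PFC minus NAc difference of 0.53 ± 0.19 (adjusted p = 0.918). Abhd6 had an unadjusted p of 0.0521 in the joint test. The remaining 4 genes had unadjusted p-values from 0.288 to 0.895.

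**Figure D3:**
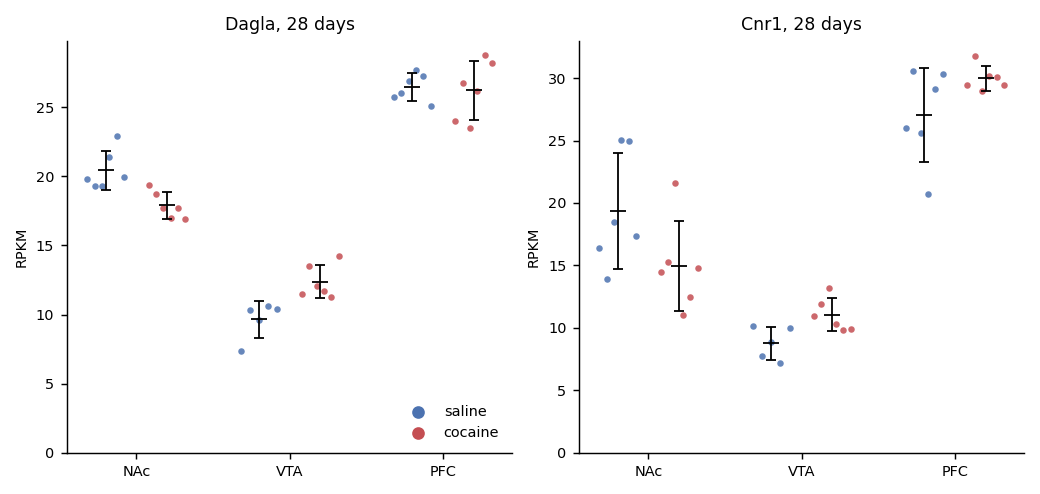
Dagla (left) and Cnr1 (right) at 28 days, in RPKM on a linear axis from 0, by region, with 1 point per library and the mean ± SD, saline left and cocaine right of each region. In the VTA every Dagla cocaine point is above the saline points, in the NAc 5 of 6 cocaine points are below them, and in the PFC the groups lie on top of each other at 23.5 to 28.7 RPKM.

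The Dagla call was close to its threshold. Leaving out 1 library at a time gave unadjusted p-values of 1.41e-05 to 0.000109 and adjusted p-values of 0.0197 to 0.159, and the call held without cocaine PFC library 3 or 5, saline NAc library 1 or saline VTA library 1 or 2, and was lost without any one of the other 30. The adjusted p was 0.00263 in DESeq2 and 0.0239 with the cortical marker covariate, whereas it was 0.0633 with DESeq2 size factors, 0.068 without the filter on low counts and 0.11 with each library's GC slope as a covariate.

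In the PFC at 28 days, Faah lay at 19.5 to 21.4 RPKM with cocaine (median 20.5) and at 14.1 to 19.99 RPKM with saline (median 19.2). In 5 of 6 cocaine libraries it was above every saline library (log2 fold change 0.16 ± 0.07, unadjusted p = 0.0443, adjusted p = 0.842). The lowest saline value came from library 4, the one with striatal markers, and without it the log2 fold change was 0.09 (unadjusted p = 0.0501). With the GC slope as a covariate it was 0.13 (unadjusted p = 0.136). Cnr1 measured 29.0 to 31.8 RPKM with cocaine against 20.7 to 30.5 RPKM with saline, for a log2 fold change of 0.15 ± 0.08, or 0.08 without library 4. That library had the lowest Cnr1 and Napepld values too (20.7 and 3.20 RPKM). Mgll, at 84.4 to 103 RPKM with cocaine against 77.2 to 95.1 RPKM with saline, gave 0.11 ± 0.07. The others lay between -0.04 (Daglb) and 0.08 (Napepld), with Dagla at -0.01 ± 0.05.

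After 1 day of abstinence, Napepld in the PFC was the only member with an unadjusted p under 0.05. There this maker of anandamide measured 4.97 to 6.35 RPKM with cocaine (median 6.08) and 4.92 to 5.58 RPKM with saline (median 5.18). In 5 of 6 cocaine libraries it lay above all saline libraries, for a log2 fold change of 0.18 ± 0.07 on the log2(RPKM + 0.1) scale in limma (unadjusted p = 0.0157, adjusted p = 0.913, exact permutation p = 0.0152). In the VTA its log2 fold change was also 0.18 ± 0.09 (unadjusted p = 0.0648, adjusted p = 0.354), from 4.74 to 6.33 RPKM with cocaine against 3.86 to 5.05 RPKM with saline. With the cortical marker level as a covariate it was 0.0157 (unadjusted p = 0.88). The VTA value came with a higher cortical marker sum under cocaine (6.07 to 73.9 RPKM against 1.89 to 30.1 RPKM) and a lower dopamine neuron marker sum (423 to 1029 RPKM against 663 to 1691 RPKM). Microglial markers did not overlap between the groups, at 92.4 to 129 RPKM against 140 to 174 RPKM, with all 5 below 0 and at an unadjusted p under 0.05 and 1 called. The part of the dopamine neuron and microglial differences was not tested. In that table Napepld and the cortical marker sum were correlated across the 12 libraries (Pearson's r = 0.839, permutation p = 0.00015, adjusted over 28 relations 0.0042; Spearman's rho = 0.79; r = 0.748 without the 2 libraries farthest from the median marker sum). Cocaine and saline libraries were pooled there without removing group means, so the group difference in both values enters r and p. Dagla had a log2 fold change of -0.17 ± 0.11 in the NAc and -0.13 ± 0.11 in the PFC, and 0.00 ± 0.12 in the VTA. In the NAc, the receptor gene Cnr1 gave -0.01 ± 0.21, with libraries from 16.1 to 31.8 RPKM with cocaine and from 13.7 to 29.6 RPKM with saline. At this spread only a large difference in Cnr1 could have been seen, since its 95% interval ran from -0.42 to 0.40. Over the 3 regions the log2 fold change was -0.09 to -0.05 for Daglb, -0.08 to 0.01 for Faah, -0.03 to 0.11 for Mgll and 0.01 to 0.16 for Abhd6.

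**Figure D4:**
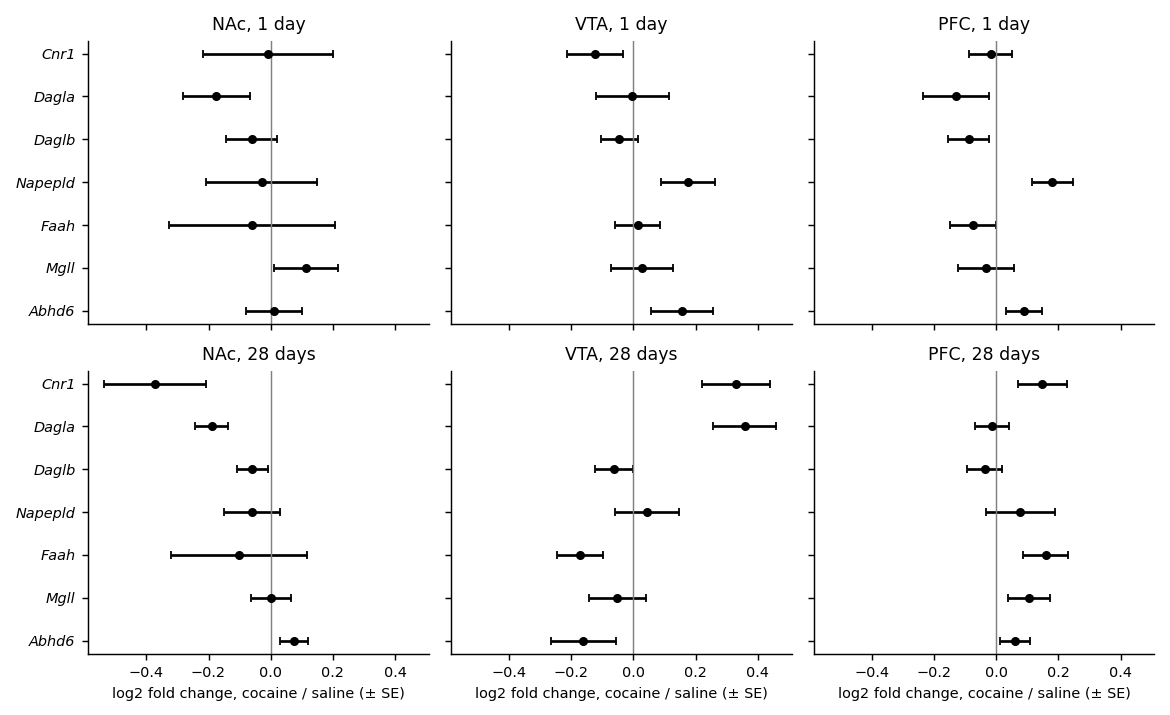
Log2 fold change of cocaine over saline for each gene (points, with bars for ± 1 SE) by region and by days of abstinence, 1 day above and 28 days underneath, with a vertical line at 0. At 28 days Dagla and Cnr1 lie left of 0 in the NAc (-0.19 and -0.37) and right of it in the VTA (0.36 and 0.33), and at 1 day no gene exceeds 0.18 in size.

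Whether the effect differed between 1 and 28 days could be tested for the NAc, where both tables hold counts. None of the 7 genes passed, with edgeR calling 3 of 16612 genes (0.0181%). The difference was -0.35 ± 0.28 for Cnr1 (unadjusted p = 0.222) and 0.00 ± 0.13 for Dagla (unadjusted p = 0.992), and none of the members had an unadjusted p under 0.05. Time and the table, with whatever differed in its preparation, cannot be told apart, so levels were compared between the times only as a description. In saline NAc libraries on a joint scale, Dagla was 2.26-fold higher at 28 days than at 1 day (log2 difference 1.17). Mgll followed at 0.44 and Daglb at 0.29, and Cnr1, Faah, Napepld and Abhd6 lay between -0.26 and -0.15. Of 16612 genes, 6.83% moved by more than 1 on that scale, and Dagla was at the 96.1 percentile.

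The GC content of the transcripts moved with that shift. The longest protein-coding transcript of Dagla in the mm9 annotation had a GC content of 58.8%, above that of 92.5% of 22754 genes, whereas Cnr1 (44.9%) and Napepld (45.8%) were on the low side and Abhd6 (49.7%), Daglb (54.5%), Faah (54.6%) and Mgll (55.3%) lay between. Across genes, which are not independent replicates, the shift correlated with GC content at r = 0.77, and the 980 genes within 1 percentage point of Dagla had a median shift of 0.73. Within the tables of 1 day, the Dagla level followed the library's GC slope (the change in log2 level for each 10 percentage points of GC). Pearson's r was 0.935 in the NAc (permutation p = 1e-05, the smallest that the permutations can give, 0.00042 adjusted over 42 relations; Spearman's rho = 0.979; r = 0.884 without the 2 farthest libraries). In the PFC r was 0.881 (permutation p = 4e-05, adjusted 0.00084; rho = 0.853; 0.919 without the 2 farthest), and in the VTA 0.664 (permutation p = 0.018, adjusted 0.102; rho = 0.72; 0.692 without the 2 farthest). For Dagla at 28 days no relation passed the test, with r = 0.333 in the NAc (permutation p = 0.292, adjusted 0.496; rho = 0.336; 0.525 without the 2 farthest), -0.379 in the VTA (permutation p = 0.247, adjusted 0.472; rho = -0.0727; 0.059 without) and 0.0172 in the PFC (permutation p = 0.959, adjusted 0.982; rho = -0.126; -0.118 without). With the slope as a covariate the cocaine log2 fold change of Dagla at 1 day was -0.08 in the NAc (unadjusted p = 0.168), against -0.17 without it, and -0.0195 in the PFC (unadjusted p = 0.763), against -0.13 without it. At 28 days it was -0.19 in the NAc (unadjusted p = 0.00312) and 0.34 in the VTA (unadjusted p = 0.0068).

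Dagla was not alone in this among the 42 relations. Daglb followed the GC slope in the NAc at both times, with r = 0.775 at 1 day (permutation p = 0.00283, adjusted 0.0297; rho = 0.65; 0.61 without the 2 farthest libraries) and r = 0.876 at 28 days (permutation p = 0.00016, adjusted 0.00224; rho = 0.853; 0.847 without the 2 farthest). In the PFC at 1 day it had r = 0.757 (permutation p = 0.004, adjusted 0.0297; rho = 0.748; 0.641 without the 2 farthest), and Faah had r = 0.752 (permutation p = 0.00424, adjusted 0.0297; rho = 0.755; 0.9 without the 2 farthest). With the slope as a covariate, the cocaine log2 fold change of Daglb in the NAc at 28 days was -0.0401 (unadjusted p = 0.327), against -0.06 without it.

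**Figure D5:**
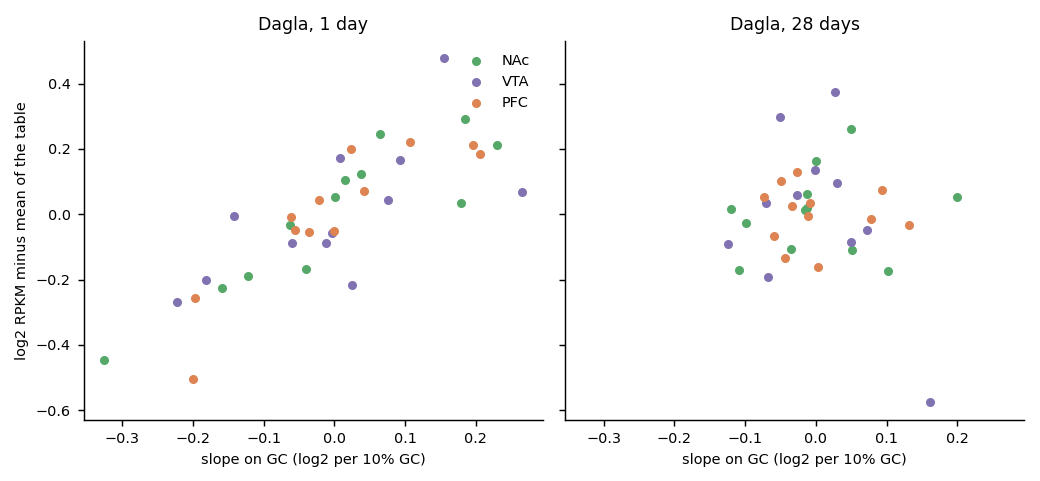
Dagla level in each library (log2 RPKM minus the mean of its table) against the slope of that library's gene levels on transcript GC content (log2 per 10 percentage points), at 1 day (left) and 28 days (right), coloured by region. At 1 day the points rise together in all regions (r = 0.664 to 0.935), and at 28 days the Dagla points form no line (r = -0.379 to 0.333).

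By the adjusted p of Pearson's r, Faah varied among NAc libraries together with the cortical markers at both times, and Cnr1 and Napepld did so at 1 time each. At 1 day, Pearson's r with the marker level across the 12 libraries was 0.772 for Cnr1 (permutation p = 0.00291, 0.0163 adjusted over 28 relations; Spearman's rho = 0.853; r = 0.873 without the 2 farthest libraries). It was 0.745 for Faah (permutation p = 0.00517, adjusted 0.0241; rho = 0.846; 0.954 without the 2 farthest). For Napepld at 1 day r was 0.601 (permutation p = 0.0386, adjusted 0.108), and 0.883 without the 2 farthest libraries. Its rho of 0.706 did pass (permutation p = 0.0132, adjusted 0.0412). At 28 days the relation held for Faah (r = 0.857, permutation p = 0.00061, adjusted 0.00831; rho = 0.874; 0.851 without the 2 farthest) and Napepld (r = 0.797, permutation p = 0.00187, adjusted 0.0131; rho = 0.713; 0.666 without the 2 farthest). For Cnr1 it was weaker at that time (r = 0.377, permutation p = 0.224, adjusted 0.368; rho = 0.406) and rested on the farthest libraries, since r was -0.00652 without them. For Dagla r was -0.248 at 1 day (permutation p = 0.437, adjusted 0.612; rho = -0.175; 0.0114 without the 2 farthest) and 0.0681 at 28 days (permutation p = 0.834, adjusted 0.834; rho = 0.105; -0.0893 without them).

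In the VTA, where cocaine and saline libraries were also pooled, Cnr1 went the other way at 1 day. It had r = -0.719 (permutation p = 0.0068, adjusted 0.0272), or -0.573 without the 2 farthest libraries, and rho = -0.797. Faah had r = 0.66 at that time (permutation p = 0.0179, adjusted 0.0628) and rho = 0.706 (permutation p = 0.0128, adjusted 0.0412). At 28 days, Cnr1 had r = -0.569 (permutation p = 0.071, adjusted 0.166; rho = -0.573; -0.385 without the 2 farthest), and Abhd6 tracked the cortical markers (r = 0.845, permutation p = 0.00089, adjusted 0.00831; rho = 0.782; 0.641 without the 2 farthest).

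As a description of which genes varied alongside the members, 15270 genes were compared over the 47 libraries of the count tables, each library taken as its difference from its group mean. The libraries share depth, base composition and dissection effects, so these correlations carry no p. Cnr1 was most like Galnt14 (r = 0.784), Cntn4 (0.727) and Slc1a1 (0.724). Dagla was most like Mon1b (0.827), Dhx30 (0.807) and Ints1 (0.802), and Daglb most like Pip5k1c (0.78), Brsk2 (0.741) and Pacsin1 (0.735). The closest genes to Napepld were Dnajc6 (0.781), Klf6 (0.777) and Cdk14 (0.776). Faah had the closest followers of all 7, Fhod3 (0.936), St8sia5 (0.93) and Ube2ql1 (0.923). Mgll had Mfge8 (0.752), Cdc42ep4 (0.722) and Stra13 (0.657), and Abhd6 had Adarb1 (0.802), Slc38a2 (0.78) and Luzp1 (0.759). Between members the largest correlations were 0.609 for Dagla with Daglb, 0.609 for Napepld with Faah and 0.561 for Cnr1 with Napepld. Cnr1 and Dagla, which had same-side cocaine differences in both the NAc and the VTA at 28 days, correlated at -0.177 once group means were removed.

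The wider pathway was read from a list of 36 other genes in 5 groups, of which 27 to 31 could be tested in a comparison. None passed the test for cocaine against saline in any region or time, and none passed either interaction. At an unadjusted p under 0.05, edgeR or limma counted 1 of 29 in the NAc, 4 of 27 in the VTA and 0 of 27 in the PFC at 1 day, beside 4.01%, 15.7% and 3.78% of all genes. At 28 days they were 2 of 30, 7 of 31 and 3 of 29, beside 6.76%, 11.5% and 5.66% of all genes. The median log2 fold change of the list stayed between -0.04 and -0.01 in all 6 comparisons, beside -0.03 to 0.03 over all genes. In the VTA at 28 days the smallest p-values were for Scp2, a sterol carrier protein (log2 fold change -0.20 ± 0.07, adjusted p = 0.394), and Cnr2, the cannabinoid receptor of immune cells (-1.22 ± 0.43, adjusted p = 0.394). Cnr2 was very low there, at 0.028 to 0.108 RPKM with cocaine and 0.056 to 0.331 RPKM with saline. In the NAc at 28 days they were for the inhibitory G protein subunit Gnai1 (0.20 ± 0.06, adjusted p = 0.592) and for Pla2g4e, an enzyme that makes anandamide precursors (-0.39 ± 0.12, adjusted p = 0.592). In the PFC at 28 days, Ptgs2, the cyclooxygenase that oxidizes endocannabinoids, stood at 0.32 ± 0.12 and the lipid-sensing nuclear receptor Pparg at 0.37 ± 0.16 (adjusted p = 0.842 for both).

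At 1 day the pathway genes with the smallest p-values were others again. They were the lipid receptor Ppara (0.32 ± 0.11) and the lipoxygenase Alox12 (-0.48 ± 0.23) in the NAc, with an adjusted p of 1 for both. Alox12 was low in the NAc, at 0.130 to 0.335 RPKM with cocaine and 0.205 to 0.440 RPKM with saline. In the VTA the smallest p-values were for Fabp5, a carrier of anandamide (-0.26 ± 0.09, adjusted p = 0.225), and Naaa, an acid amidase (0.37 ± 0.13, adjusted p = 0.234). In the PFC they were for the phospholipase C gene Plcb2 (-0.21 ± 0.13) and Pla2g4e (-0.16 ± 0.11), both with an adjusted p of 0.913.

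Between regions pathway genes were called about as often as all genes for the NAc pairs. Of 30 tested in saline mice at 28 days, 13 were called between NAc and PFC, 3 higher and 10 lower in the NAc, where 40.7% of all genes were called. Between NAc and VTA, 20 were called, 8 higher and 12 lower in the NAc, beside 62.5% of all genes. Between VTA and PFC 25 were called, 10 higher and 15 lower in the VTA, beside 57.8% of all genes. Phospholipases C release the diacylglycerol from which 2-AG is made. Among them, Plcb4 was lower in the NAc than in the VTA (log2 difference -2.41 ± 0.15) and the PFC (-1.37 ± 0.14), and Plcb1 was lower in the VTA than in the PFC (-1.96 ± 0.15). Among receptor partners, Cnrip1, whose protein binds the tail of the cannabinoid receptor, was lower in the NAc (-1.10 ± 0.10) and the VTA (-1.07 ± 0.11) than in the PFC, in the direction of Cnr1 itself. Sgip1, another receptor partner, was higher in the NAc than in the VTA (0.75 ± 0.09). Ptgs2 was lower in the NAc (-1.65 ± 0.19) and VTA (-1.11 ± 0.19) than in the PFC, and Naaa was higher in the NAc than in the VTA (0.55 ± 0.10). Pparg was lowest in the NAc, by -2.38 ± 0.28 against the PFC and -0.82 ± 0.30 against the VTA, and was lower in the VTA than in the PFC (-1.56 ± 0.28). Of the lipid carriers, Fabp7, an astrocyte protein, was higher in the VTA than in the NAc (-0.85 ± 0.24 for NAc minus VTA) and the PFC (1.21 ± 0.24), and Fabp3 was lower in the NAc than in the PFC (-0.84 ± 0.12).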

How the data were processed

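RNA-seq libraries of mouse NAc, VTA and PFC were analysed from the authors' tables, which they made by aligning reads to mm9 with STAR 2.4.1d and an Ensembl annotation. The authors deposited raw read counts per gene in 4 tables (NAc at both times, VTA and PFC at 28 days) and RPKM values in 2 (VTA and PFC at 1 day). Columns of the authors' own fold changes and p-values were not used, and 30 columns that match no sample were left out. Whether counting used strand is not given in the sources used here, so a gene and an overlapping antisense gene cannot be told apart.

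Counts were fitted with edgeR 4.0.16 (TMM, filterByExpr with a minimum count of 10, quasi-likelihood test). For the 2 RPKM tables, limma 3.58.1 was run on log2(RPKM + 0.1). Genes averaging under 0.5 RPKM were dropped, and changes of low genes come out too small after adding the pseudocount. P-values were Benjamini-Hochberg adjusted over all genes tested in each comparison, with calls at 0.05. Whole reads were recovered from the RPKM steps for all of 23806 (VTA) and 23353 (PFC) genes within 0.01 reads and tested with edgeR as an alternative. Levels are RPKM on a TMM scale for each count table, and the deposited RPKM for the VTA and PFC at 1 day. Where regions are compared, levels are on a TMM scale over the joined 28-day tables. For region values of 1 day, the scale is over the joined counts and recovered reads of that time. Interactions were fitted on the joined counts of the NAc (by time) and of 28 days (by region). Single values were compared by exact permutation of log2 levels. Correlations with markers and with the GC slope pooled the cocaine and saline libraries of a table, without removing group means, and used 100000 permutations. A difference between the groups in both values therefore enters r and p. Fits were run on simulated data whose fold changes were larger than any cocaine fold change of the members. GC and dissection differences between libraries were not simulated. Whether changes as small as those here could be found was therefore not tested.

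Other settings were DESeq2 1.42.0, its size factors, no filter, a pseudocount of 1, an adjusted p of 0.25, a replicate block, each library left out in turn, the 1-day saline and the cocaine libraries for regions, and a cortical marker covariate. The GC slope covariate, the marker covariate in the NAc at both times and, for the region interaction, the contrasts of pairs of regions, DESeq2, the marker covariate and leaving out libraries were chosen after seeing the data. Intervals are ± 1.96 SE, from the normal distribution. They are narrower than intervals from the degrees of freedom of the tests would be. All 7 members were described, and from the pathway list the 2 genes with the smallest p in each cocaine comparison and the largest difference in each group for each pair of regions. The 3 genes most like each member were taken by Pearson's r. Members and lists were chosen with earlier results of these data known. The labels do not say what libraries with 1 replicate number share. At 1 day same-numbered cocaine and saline libraries correlated from -0.45 to 0.59, not over 0.1 in every pair of any table, so the numbers were not taken as pairs. No libraries of a group were as alike as sampling noise allows (chi-square per degree of freedom of at least 4.59). The labels do not say that replicates were separate mice, so p-values measure the spread between these libraries.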

Additional observations from a re-analysis of the deposited data

Results flagged for a closer look

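The treatment by region interaction of Dagla at 28 days, with an adjusted p of 0.048 in edgeR, was a tested difference between regions under the same contrast. Its largest pairwise term was the VTA effect minus the NAc effect, 0.57 on the log2 scale, from a contrast chosen after seeing the data. All 6 VTA cocaine libraries lay above the saline libraries and 5 of 6 NAc cocaine libraries below them. These are the values that gave the call and add nothing to it. In edgeR fits without 1 library the call was lost in 30 of 35, with adjusted p-values of 0.0197 to 0.159 over all 35. Whether both regions came from the same mice is not given in the labels, and the fit treated the libraries as independent.

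In 84 groups of 5 or 6 libraries, 4 single libraries lay farther from the rest than Dixon's criterion allows, about as many as 1 in 20 groups gives by chance. The highest Daglb library of cocaine NAc at 1 day measured 9.87 RPKM, beside 7.56 to 8.40 RPKM in the other 5. The highest Dagla library of saline VTA at 1 day measured 8.83 RPKM, beside 5.46 to 6.53 RPKM. The lowest Napepld library of cocaine PFC at 1 day measured 4.97 RPKM, beside 5.91 to 6.35 RPKM. The lowest Faah library of saline PFC at 28 days measured 14.1 RPKM, beside 18.1 to 19.99 RPKM, and was the library with a striatal marker sum of 1338 RPKM.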

How the results depend on the processing

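Of the values for single members, 1360 kept their direction and their side of the threshold, 72 changed sign, 34 lost a call and 3 gained one. The lost calls were 1 region difference of Abhd6 and 33 values of the Dagla interaction, and the gained calls were the VTA minus PFC difference of Napepld. No value that changed sign was called. With the cortical marker covariate they were 0.147 for Abhd6, 0.0413 for Daglb and 0.0767 for Mgll in the VTA at 28 days, 0.0404 for Cnr1, 0.151 for Dagla, -0.118 for Faah and -0.0132 for Mgll in the VTA at 1 day, and 0.139 for Faah and 0.00887 for Napepld in the NAc at 28 days. With the GC slope covariate they were -0.0139 for Abhd6 in the NAc, -0.0012 for Faah in the VTA and 0.0308 for Mgll in the PFC at 1 day, and -0.00967 and -0.000769 for Napepld in the PFC and VTA at 28 days. Recovered reads gave -0.0309 for Faah and -0.0118 for Mgll in the VTA at 1 day, DESeq2 -0.00062 and its size factors -0.000764 for Mgll in the NAc at 28 days, the 1-day saline libraries -0.0200 for Daglb between NAc and VTA, and no filter 0.00030 for Dagla between times in the NAc.

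Leaving out 1 library gave at 1 day, in the NAc, -0.0562 to 0.0522 for Abhd6, -0.142 to 0.0901 for Cnr1, -0.277 to 0.0629 for Faah and -0.183 to 0.0588 for Napepld. It gave -0.0509 to 0.0261 for Cnr1 and -0.0810 to 0.0429 for Mgll in the PFC, and -0.0466 to 0.0903 for Dagla, -0.0304 to 0.0532 for Faah and -0.0108 to 0.0979 for Mgll in the VTA. At 28 days it gave -0.0433 to 0.0165 for Dagla and -0.0138 to 0.139 for Napepld in the PFC, -0.245 to 0.0718 for Faah and -0.0287 to 0.0359 for Mgll in the NAc, and -0.109 to 0.00784 for Mgll and -0.0233 to 0.105 for Napepld in the VTA.

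Counts of all genes called moved more. At 1 day DESeq2 gave 20, the cortical covariate 4 and an adjusted p of 0.25 gave 3 in the NAc. In the VTA they were 333 with the GC slope, 1309 at 0.25, 0 with the cortical covariate, 55 on recovered reads and 60 with the replicate block, and 4 at 0.25 in the PFC. At 28 days DESeq2 gave 18 in the NAc, 73 in the VTA and 2 in the PFC. The region interaction called 65 in DESeq2, 2 with the GC slope, 95 with the cortical covariate and 3 without a filter. Without 1 library the counts were 0 to 2 in the NAc at either time, 1 to 2 (PFC) and 0 to 65 (VTA) at 1 day, and 0 to 130 for the interaction. The cause of these shifts was not tested. The block by replicate number changed no call of a member. At 28 days no paired analysis was possible because the columns are numbered from 1 within each group and these numbers do not match the replicate numbers of the labels, so no column could be tied to a numbered sample. Each member had at least 142 reads in every library, and the part of depth in the lack of calls was not tested.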
